A study of Mus musculus with 26 samples.

Results

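The genes described here are the core of the mTOR pathway and its 4E-BP arm: Mtor, Rptor, Rictor and Mlst8 (the mTOR complexes), Tsc1, Tsc2 and Rheb (the switch upstream), and Eif4ebp1, Eif4ebp2 and Rps6kb1 (the effectors). They were chosen by symbol, and 9 of the 10 were listed in each of the 3 deposited tables, which hold 8576, 8576 and 9561 transcripts. Eif4ebp1 was listed in none of them, so every count of members is out of 9. mTOR is a protein kinase that works in mTORC1, with raptor, and in mTORC2, with rictor, and mLST8 belongs to both. Growth factor signals relieve the brake that the TSC complex puts on the small GTPase Rheb, and GTP-bound Rheb activates mTORC1 at the lysosome. Active mTORC1 phosphorylates 4E-BP proteins, which then release the cap-binding protein eIF4E, and S6 kinase, so the pathway ties nutrient supply to translation, in neurons as in other cells.

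The study compared ribosome footprints with total RNA in the striatum of LRRK2 mouse models, all on the C57BL/6 strain and 3 months old by the labels. GS LRRK2 TG mice carry a G2019S LRRK2 transgene, and GS/DA LRRK2 TG mice carry G2019S/D1994A LRRK2, in which the added D1994A change makes the kinase dead. Both were set against non-TG control mice, and LRRK2 KO mice were set against WT mice. Each transgene came from a high-copy line and was driven by CaMKII-tTA in a Tet-off design, so it is expressed in forebrain neurons that use this promoter, after doxycycline had been withdrawn at weaning. Tissue of several mice of both sexes was pooled for each library, and p-values therefore measure only the spread between these pools. The labels give 3 footprinting and 3 RNA-Seq samples for the non-TG control, 2 and 2 for each transgenic genotype, and 3 and 2 for WT and for LRRK2 KO.

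Each table gives 1 mean per group and assay, here called the authors' mean, in normalized reads on the coding sequence. Reads of individual libraries could be recovered for 10 of the 12 columns of means, always as 2 libraries, called a and b. The same letter in a genotype and its control marks libraries that differ from their partner in the same way. By the paper's methods each pooled lysate was split for both assays, but letters of footprinting and RNA-Seq libraries were not linked. TE values and fits therefore treat the libraries of both assays as separate. Recovered libraries held between 2860229 and 15954039 reads. Neither control column of the table for GS LRRK2 TG could be resolved, so that comparison has no spread among its controls and was not tested. The tables were normalized separately, and levels are compared only within a table. The GS and GS/DA comparisons share non-TG control mice.

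Lrrk2 was examined first as a check of the labels. In the LRRK2 KO table, Lrrk2 footprints were 690 and 400 in WT libraries a and b and 150 and 102 in the LRRK2 KO libraries. RNA-Seq gave 733 and 1278 reads in WT and 270 and 423 in LRRK2 KO. Both assays were lower in LRRK2 KO without overlap, and reads remained in LRRK2 KO; which part of the gene is deleted was not examined. In the GS/DA table, Lrrk2 footprints were 1224 and 1445 in the non-TG control and 4766 and 7267 in GS/DA LRRK2 TG. The GS LRRK2 TG libraries held 3320 and 7052 against an authors' mean of 2524 in their control. By footprint density, Lrrk2 lay at percentile 46.1 of that control and at 18.5 of the non-TG control in the GS/DA table. Mtor lay at percentiles 34.3 and 34.6, and Rheb at 92.2 in both. Lrrk2 footprints therefore do not check the non-TG label of the GS control, which may bear on its values. The reason was not tested. RNA-Seq did not show the transgenes: the libraries labelled GS/DA LRRK2 TG held 404 and 5038 Lrrk2 reads, those of the non-TG control 560 and 5233, and those labelled GS LRRK2 TG 214 and 3550. The RNA-Seq labels of the transgenic groups are therefore not checked by Lrrk2, and this may bear on every RNA-Seq and TE value of those tables. By its methods, the study blotted part of the pooled lysate for the transgene, which does not check the label of a library. Cortical markers, given next, were higher in both assays of GS/DA LRRK2 TG, but they do not report the transgene. In GS LRRK2 TG their footprints lay on either side of the control mean, and their RNA-Seq reads lay below it in both libraries.

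The striatal label was checked against markers. All 9 markers of striatal projection neurons were listed in every table, led by Ppp1r1b, which lay at percentile 99.7 of the footprints in the non-TG control and in WT. By authors' means, whose libraries were not all resolved for these genes, their sums were lower in GS/DA LRRK2 TG than in its control, with 112529 against 140104 footprints and 98656 against 113430 RNA-Seq reads. Those of GS LRRK2 TG were 96552 against 104441 and 96161 against 104004, and those of LRRK2 KO 31119 against 30002 and 46532 against 44276. The GS LRRK2 TG footprint sum was 114703 in library a and 78401 in library b, on either side of its control mean. In the KO table the library sums of WT and LRRK2 KO overlapped in both assays. Markers of other cells were also present. The transgenic tables listed 3 cortical neuron markers, led by Slc17a7. In the GS/DA table, their summed footprints were 1056 and 1630 in the non-TG control and 2574 and 4104 in GS/DA LRRK2 TG, and their summed RNA-Seq reads were 1965 and 915 against 4030 and 2408. GS LRRK2 TG held 431 and 2302 of these footprints, against an authors' mean of 1612 in its control, and 732 and 1410 of the RNA-Seq reads, against 1851. Of 3 choroid plexus markers only Ttr was listed, with 17056 and 1193 footprints in the non-TG control and 1137 and 5162 in GS/DA LRRK2 TG. GS LRRK2 TG held 408 and 1037 Ttr footprints against an authors' mean of 3944, and 421 and 1982 RNA-Seq reads against 4451. Within the GS/DA table the cortical markers thus moved with the genotype and Ttr with single libraries, while in the GS table Ttr was below its control mean in both libraries of each assay. Their part in the values of the mTOR pathway genes was not tested. In bulk tissue, fewer cells of a type and less RNA per cell cannot be told apart.

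The RNA-Seq libraries of the transgenic tables stood apart from each other within every group. The log2 ratio of library a to library b had an SD of 1.45 in the non-TG control, 1.69 in GS/DA LRRK2 TG and 1.71 in GS LRRK2 TG, against 0.32 to 0.39 for their footprinting libraries. Across transcripts, which are not independent replicates, this RNA-Seq ratio followed the GC content of the coding sequence, with Spearman's rho of 0.78, 0.80 and 0.79. Footprinting ratios followed it less, with 0.43, 0.47 and 0.31. In the KO table the SD was 0.64 to 0.71 in both assays, and the rho with GC content was -0.54 (WT) and -0.23 (LRRK2 KO) for footprinting and 0.04 and 0.27 for RNA-Seq. Rictor (45.7% GC) and Rps6kb1 (46.6%), members of low GC content, were low in RNA-Seq library a, as was Lrrk2 (46.5%). Eif4ebp2 (57.3%), Rptor and Tsc2 (both 54.8%) were low in library b. Mtor, also at 54.8%, and Rheb, the lowest member at 40.5%, differed far less between the libraries, with log2 ratios of 0.25 and 0.11 in the non-TG control. TE of Rictor, Rps6kb1, Eif4ebp2, Rptor and Tsc2 in the transgenic tables therefore rests on means of very unequal RNA-Seq libraries.

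**Figure D1:**
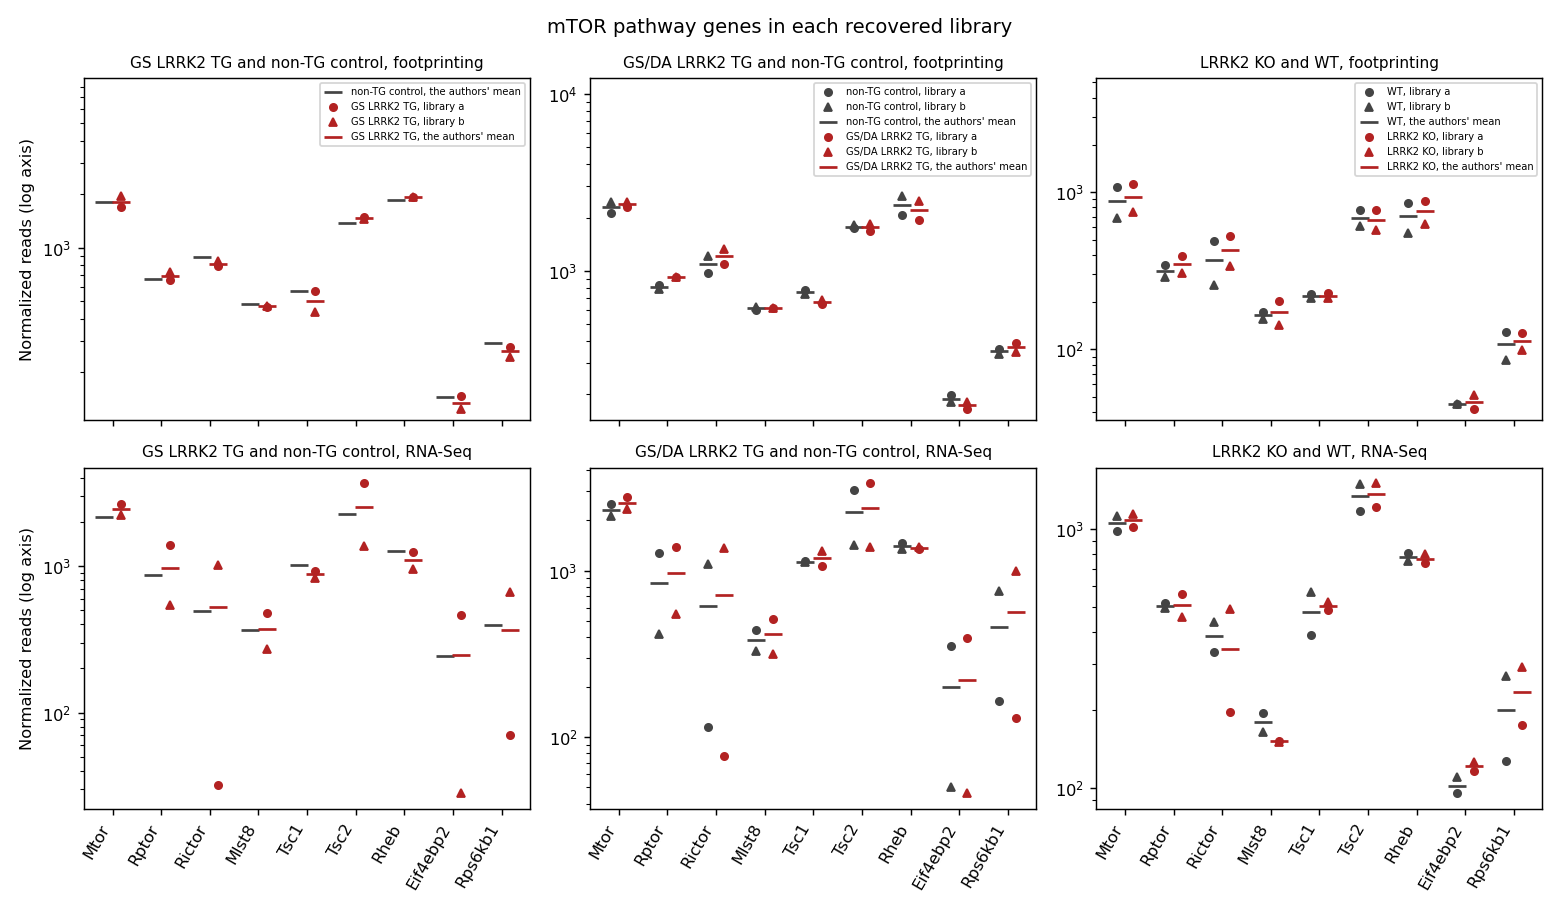
Normalized reads of the 9 listed members on a log axis, by table (columns) and assay (panel rows), with circles for library a, triangles for library b and dashes for the authors' mean; control groups are grey and genotypes red. In the transgenic tables footprints of a gene lie close together, while RNA-Seq of Rictor ranges from 77 to 1358 within GS/DA LRRK2 TG alone.

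The members differed widely in how many footprints they carried per kb of coding sequence. In the non-TG control of the GS/DA table the authors' means were 4294 for Rheb, 626 for Mlst8, 526 for Eif4ebp2, 320 for Tsc2 and 296 for Mtor. Tsc1 followed with 218, Rictor with 214, Rptor with 202 and Rps6kb1 with 181. Libraries of Tsc2 and Mtor overlapped, as did those of Tsc1 with Rictor and of Rictor with Rptor, so these neighbours are not ordered beyond their spread. Rheb lay at percentile 92.2 of all transcripts in this density, and Rps6kb1 at percentile 19.2. In WT, of a table normalized on its own, Rheb again came first with 1272 footprints per kb, then Mlst8 with 169 and Eif4ebp2 with 126, and Rps6kb1 came last with 55.7. Libraries of Eif4ebp2 overlapped with those of Tsc2 (124), and those of Tsc1 (62.8) with Rps6kb1, so these places are not ordered beyond their spread either.

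**Figure D2:**
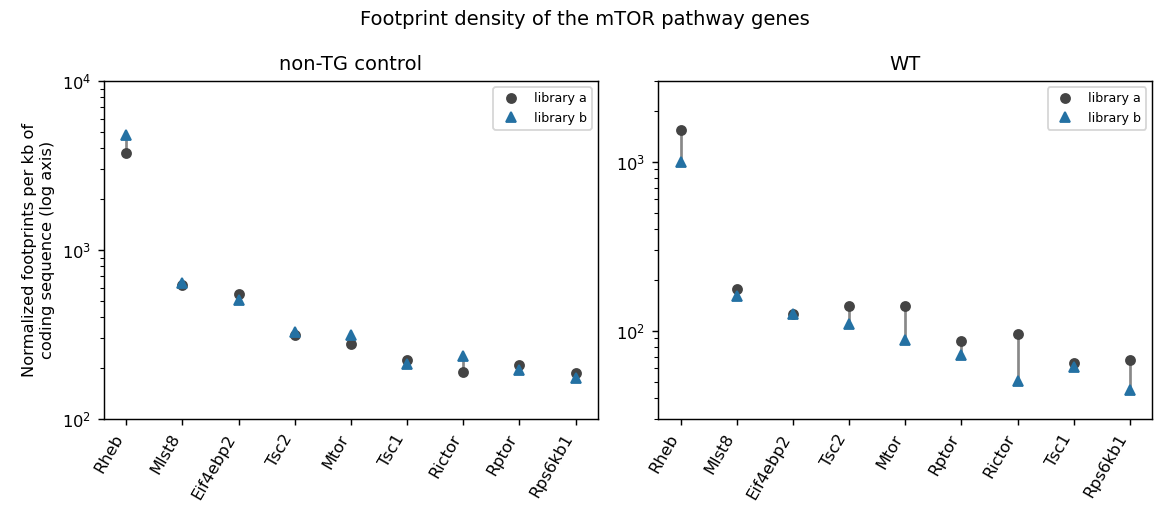
Normalized footprints per kb of coding sequence, on a log axis, for each listed member in both recovered control libraries of the GS/DA table (left) and in WT (right), with members ordered by the authors' mean and a line joining both libraries. Rheb, at 4294 and 1272 as authors' means, lies above all other members in both groups.

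The subunits of the complexes can be set against the kinase itself. Footprints per kb of Rptor, the mTORC1 scaffold that recruits substrates, were 0.75 and 0.62 of those of Mtor in the non-TG control libraries and 0.77 and 0.72 in GS/DA LRRK2 TG. Rictor, which defines mTORC2, gave ratios of 0.69 and 0.75 in the control and 0.72 and 0.82 in GS/DA LRRK2 TG. Mlst8, the small subunit that both complexes hold, gave 2.23 and 2.01 in the control and 2.13 and 1.98 in GS/DA LRRK2 TG. All 3 ratios overlapped between these groups, although in both library pairs those of Rptor and Rictor were higher in GS/DA LRRK2 TG and that of Mlst8 lower, which was not tested. The KO table gave overlapping ratios for Rptor, 0.62 and 0.81 in WT against 0.67 and 0.79 in LRRK2 KO, while for Rictor those of WT, 0.68 and 0.57, and of LRRK2 KO, 0.70 and 0.68, only met. For Mlst8 the WT ratios of 1.27 and 1.82 enclosed those of LRRK2 KO, 1.42 and 1.49.

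Mtor, the kinase, had 2133 and 2437 footprints in the non-TG control and 2287 and 2461 in GS/DA LRRK2 TG. GS LRRK2 TG had 1688 and 1946, on either side of the authors' mean of 1798 in its control. Mtor footprints in the KO table were 1077 and 682 in WT and 1123 and 750 in LRRK2 KO. The groups overlapped in both tables with recovered controls, and libraries a and b differed by more than the genotypes. Within library pairs a and b, the log2 change of Mtor footprints was 0.10 and 0.01 (GS/DA) and 0.06 and 0.14 (KO). Its RNA-Seq change was 0.13 and 0.13 (GS/DA) and 0.05 and 0.02 (KO). All were above 0, and the fits described below called none of them. RNA-Seq reads of Mtor were 2521 and 2123 in the non-TG control and 2753 and 2325 in GS/DA LRRK2 TG, and 984 and 1126 in WT against 1019 and 1144 in LRRK2 KO. GS LRRK2 TG had 2658 and 2242, against an authors' mean of 2172. On the log2 scale, the authors' means differed by 0.02 (GS), 0.06 (GS/DA) and 0.09 (KO) in footprints and by 0.17, 0.13 and 0.04 in RNA-Seq, and the TE differences were -0.16, -0.07 and 0.06.

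Rptor had 834 and 785 footprints in the non-TG control and 917 and 925 in GS/DA LRRK2 TG, which do not overlap. This log2 change was 0.18 in limma (SE 0.11, adjusted p = 1), and with the library pair as a block the SE was 0.07 and the adjusted p = 0.33. Neither fit called it. In GS LRRK2 TG the libraries held 658 and 731 Rptor footprints, around the authors' mean of 672 in the control, and 346 and 287 in WT overlapped with 392 and 306 in LRRK2 KO. Rptor RNA-Seq reads were 1277 and 416 in the non-TG control, 1383 and 546 in GS/DA LRRK2 TG and 1404 and 546 in GS LRRK2 TG, so the library decided the level in each group.

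Rictor showed this most. Its RNA-Seq reads were 116 and 1101 in the non-TG control libraries, 77 and 1358 in GS/DA LRRK2 TG and 32 and 1024 in GS LRRK2 TG, while its footprints were 978 and 1212, 1095 and 1335, and 792 and 839. Rictor footprints of the KO comparison were 488 and 257 in WT and 523 and 340 in LRRK2 KO, and RNA-Seq reads were 334 and 436 against 196 and 491. The groups overlapped in both assays. Within library pairs, footprints were higher than in the control in both pairs of GS/DA LRRK2 TG (0.16 and 0.14) and of LRRK2 KO, and no fit called this. The TE difference of Rictor in GS LRRK2 TG, -0.22 (z score -1.26), became -1.18 without RNA-Seq library a and 3.81 without RNA-Seq library b. In LRRK2 KO the TE difference was 0.38 (z score 1.31), from a footprinting change of 0.21 and an RNA-Seq change of -0.16. The footprinting change was 0.10 in library pair a and 0.40 in pair b, and the RNA-Seq change was -0.77 and 0.17. The limma TE change in LRRK2 KO was 0.53 (SE 0.71, adjusted p = 1), and 0.53 (SE 0.30, adjusted p = 1) with the library pair as a block.

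Mlst8 footprints were close in all libraries of the transgenic tables, with 604 and 621 in the non-TG control, 617 and 617 in GS/DA LRRK2 TG, and 464 and 474 in GS LRRK2 TG against an authors' mean of 486. They were 173 and 157 in WT and 203 and 142 in LRRK2 KO. Its RNA-Seq reads were 195 and 164 in WT and 152 and 150 in LRRK2 KO, which do not overlap. The RNA-Seq change was -0.23 in limma (SE 0.26, adjusted p = 1), and the TE difference of the means was 0.31 (z score 1.06). This TE difference ran from 0.03 to 0.54 without 1 library.

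Upstream of mTORC1, Tsc1 (hamartin) and Tsc2 (tuberin, the GTPase-activating subunit) form the complex that turns Rheb off. Tsc1 footprints were 777 and 741 in the non-TG control and 648 and 683 in GS/DA LRRK2 TG, again without overlap. The limma change was -0.19 (SE 0.11, adjusted p = 1), and the adjusted p = 0.33 with the library pair as a block (SE 0.08). Neither fit called this difference. In GS LRRK2 TG, Tsc1 footprints were 572 and 438 against an authors' mean of 572, and those of the KO comparison were 224 and 213 in WT and 227 and 213 in LRRK2 KO. Tsc1 RNA-Seq reads overlapped between the groups, with 1136 and 1127 in the non-TG control against 1063 and 1305 in GS/DA LRRK2 TG, then 388 and 568 in WT against 487 and 523 in LRRK2 KO. The Tsc1 TE difference of -0.26 in GS/DA LRRK2 TG (z score -1.04) ran from -0.40 to -0.10 without 1 library.

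Tsc2 had 1744 and 1811 footprints in the non-TG control, 1682 and 1843 in GS/DA LRRK2 TG, then 770 and 608 in WT and 769 and 571 in LRRK2 KO. The groups overlapped in both tables. In GS LRRK2 TG, Tsc2 had 1492 and 1446 footprints, both above the authors' mean of 1384 in the control, whose own spread is not known. Its RNA-Seq reads followed the library, with 3047 and 1414 in the non-TG control, 3347 and 1380 in GS/DA LRRK2 TG and 3694 and 1381 in GS LRRK2 TG. Tsc2 carried more footprints per kb than Tsc1 in every recovered library, by a ratio of 1.41 and 1.53 in the non-TG control, 1.63 and 1.69 in GS/DA LRRK2 TG, then 1.64 and 2.07 in GS LRRK2 TG, 2.16 and 1.79 in WT and 2.13 and 1.68 in LRRK2 KO. The ratio did not overlap between GS/DA LRRK2 TG and its control, which was not tested. It holds the Tsc1 footprints, which did not overlap either, and is not separate from them. In footprints of this table, 24.2% of all transcripts did not overlap, and no such share was taken for ratios.

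Rheb, the GTPase itself, had 2077 and 2664 footprints in the non-TG control and 1945 and 2480 in GS/DA LRRK2 TG, with log2 changes of -0.09 and -0.10 in library pairs a and b. In the KO table it had 853 and 552 in WT and 883 and 631 in LRRK2 KO. In the footprints of each of these tables library a stood on the same side of library b in both groups, which the lettering favours. The groups overlapped. Rheb RNA-Seq reads did not keep this side, with 1462 and 1350 in the non-TG control and 1342 and 1378 in GS/DA LRRK2 TG. In the KO table they were 809 and 750 in WT and 739 and 797 in LRRK2 KO. GS LRRK2 TG gave 1934 and 1931 Rheb footprints against an authors' mean of 1845, and 1249 and 962 RNA-Seq reads against 1269. Its TE difference in that table, 0.27 (z score 0.99), came from a footprinting change of 0.07 and an RNA-Seq change of -0.20. This TE difference was 0.47 without RNA-Seq library a and 0.09 without RNA-Seq library b.

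Of the effectors, Eif4ebp2 encodes 4E-BP2, the main 4E-BP of the brain, and Rps6kb1 encodes the S6 kinase. Eif4ebp2 had the lowest authors' mean of the members in every group and assay. It had 198 and 181 footprints in the non-TG control, 165 and 182 in GS/DA LRRK2 TG and 147 and 124 in GS LRRK2 TG, and 45 and 45 in WT against 42 and 51 in LRRK2 KO. The groups overlapped in both tables with recovered controls. RNA-Seq reads of Eif4ebp2 were 353 and 50 in the non-TG control, 394 and 46 in GS/DA LRRK2 TG and 466 and 28 in GS LRRK2 TG. In the KO table they were 95 and 110 in WT and 116 and 126 in LRRK2 KO, which do not overlap. This last change was 0.23 in limma (SE 0.26, adjusted p = 1) and was not called. The TE differences of Eif4ebp2 were -0.11 (GS), -0.25 (GS/DA) and -0.21 (KO). Without 1 library they ran from -1.03 to 3.03, from -2.27 to 1.99 and from -0.36 to -0.08.

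Rps6kb1 had 363 and 338 footprints in the non-TG control and 389 and 348 in GS/DA LRRK2 TG, and 129 and 86 in WT against 127 and 99 in LRRK2 KO. GS LRRK2 TG had 279 and 245, both below the authors' mean of 291. Its RNA-Seq reads were 165 and 751 in the non-TG control and 131 and 993 in GS/DA LRRK2 TG. The RNA-Seq change thus had opposite signs in the library pairs, -0.33 in pair a and 0.40 in pair b. The TE differences of Rps6kb1 were -0.04 (GS), -0.22 (GS/DA) and -0.17 (KO). Without 1 library they ran from -0.89 to 2.35, from -1.70 to 1.88 and from -0.81 to 0.28. RNA-Seq reads in the KO table were 127 and 270 in WT and 175 and 294 in LRRK2 KO, which overlap.

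TE is the log2 ratio of footprints to RNA-Seq reads. In the non-TG control of the GS/DA table, the TE of the authors' means ran from 0.85 for Rictor, 0.75 for Rheb and 0.68 for Mlst8 down to -0.58 for Tsc1. Over the pairings of a footprinting with an RNA-Seq library, TE of Rictor ranged from -0.17 to 3.39 and that of Eif4ebp2 from -0.96 to 1.99, while Tsc1 ranged only from -0.62 to -0.54. Mlst8 and Mtor were the only neighbours in this order whose ranges did not overlap. In WT, TE ran from -0.05 for Rictor to -1.18 for Eif4ebp2, and every pair of neighbours overlapped. The GS table, whose control has no known spread, gave control values of 0.85 for Rictor, 0.54 for Rheb, 0.41 for Mlst8, -0.76 for Eif4ebp2 and -0.83 for Tsc1.

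TE up and TE down were called at a z score of 1.5 or -1.5 over all transcripts of a table. In GS LRRK2 TG, 0 of 9 members were TE up, against 8.01% of all transcripts, and 0 were TE down, against 3.91%. For GS/DA the counts were 0 and 0, against 3.65% and 7.36%, and in LRRK2 KO 0 and 0, against 6.23% and 6.02%. With 9 members, shares of this size leave less than 1 member in each direction, so these counts do not set the members apart from the background. The median TE difference of the members was -0.08 in GS LRRK2 TG (0.02 over all transcripts), -0.10 in GS/DA LRRK2 TG (-0.05) and 0.06 in LRRK2 KO (0.02). Leaving out 1 library moved these medians to between -0.28 and 0.38, -0.26 and 0.05, and -0.15 and 0.29. Their signs therefore rest on single libraries in all 3 tables.

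**Figure D3:**
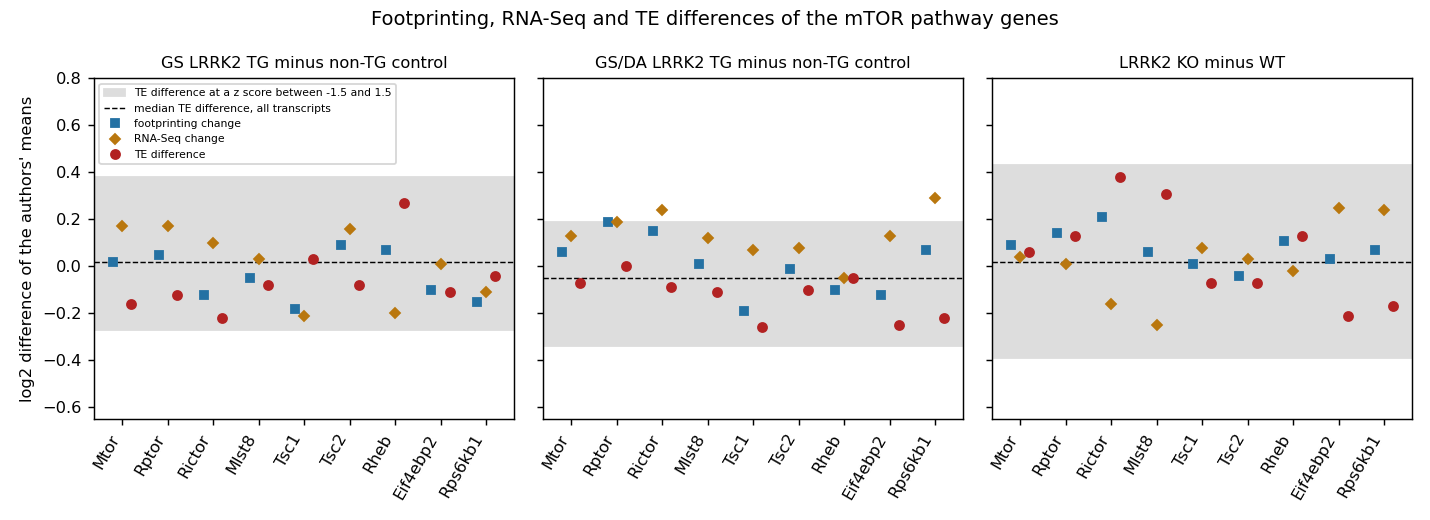
Log2 differences of the authors' means between genotype and control for each listed member, with squares for footprinting, diamonds for RNA-Seq and circles for TE. The grey band spans the TE differences between z scores of -1.5 and 1.5 and applies to the circles alone, and the dashed line is the median TE difference of all transcripts; all 9 circles of each table lie within the band.

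Footprinting changes of the members had a median of -0.05 (GS), 0.01 (GS/DA) and 0.07 (KO), beside 0.00, -0.01 and 0.02 over all transcripts. RNA-Seq changes had a median of 0.03, 0.13 and 0.03, beside -0.02, 0.06 and 0.01. Leaving out 1 library moved the footprinting medians to between -0.05 and -0.03 (GS), -0.04 and 0.05 (GS/DA) and -0.17 and 0.30 (KO), and the RNA-Seq medians to between -0.40 and 0.29, -0.07 and 0.26, and -0.12 and 0.14. Groups did not overlap in footprints for 2 of 9 members in the GS/DA table (Rptor and Tsc1), against 24.2% of all transcripts, and for 0 in the KO table, against 12.6%. For RNA-Seq the counts were 0 in the GS/DA table, against 3.37%, and 2 in the KO table (Mlst8 and Eif4ebp2), against 14.0%. With 9 members these counts do not set them apart from the background, and each pair held 1 member that was higher and 1 that was lower.

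The limma fits over all transcripts called 0 of 9 members for footprinting, RNA-Seq or TE in the GS/DA and the KO tables, where 0% of transcripts were called. At an unadjusted p under 0.05 they gave 152, 0 and 0 transcripts in the GS/DA table and 16, 7 and 4 in the KO table, with 0 members among them. With the library pair as a block, 0 members were called, against 0.453% of transcripts for GS/DA footprinting, 0.157% for KO footprinting, 0.136% for KO RNA-Seq and 0% for the other 3. In those blocked fits, 1194, 135 and 33 transcripts (GS/DA) and 301, 432 and 186 (KO) had an unadjusted p under 0.05, and the only members among them were Rptor and Tsc1 in GS/DA footprinting. Lrrk2 was called in the blocked fits, and not in those without the block, at a limma change of 2.14 for GS/DA footprinting, -2.00 for KO footprinting and -1.49 for KO RNA-Seq. The pairs were read from the values that are tested, so p-values and SEs of the blocked fits can be too small. For the members, the SE of the footprinting change was 0.11 to 0.18 in the GS/DA table and 0.20 to 0.42 in the KO table, and that of the TE change was 0.36 to 2.13 and 0.30 to 0.71. With the block, the SE of the TE change was 0.14 to 0.29 and 0.26 to 0.30.

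A wider list of 91 other genes of the pathway was counted beside the members, of which 74, 74 and 77 were listed. For GS LRRK2 TG, 7 of them were TE up and 1 was TE down, against 8.01% and 3.91% of all transcripts. Those with the largest z scores were Sgk3, a kinase downstream of PI3K, with a TE difference of 0.78, Pik3r1 and Pik3ca, the regulatory and catalytic subunits of PI3K, with 0.54 and 0.44, and the autophagy kinase Ulk2 with 0.46. RNA-Seq libraries a and b of GS LRRK2 TG held 62 and 477 reads of Sgk3 and 284 and 2091 of Pik3r1. They held 232 and 1331 of Pik3ca and 591 and 1888 of Ulk2, and the control has no known spread. Footprinting changes of these genes ran from 0.09 to 0.39 and RNA-Seq changes from -0.39 to -0.35. For GS/DA LRRK2 TG, the counts were 2 and 7, against 3.65% and 7.36%, and the z scores largest in size were those of Fnip1 (TE difference -0.81), the folliculin partner, Mios (-0.60), a GATOR2 subunit, and Tbc1d7 (0.40), the third subunit of the TSC complex. In LRRK2 KO, 1 was TE up, Grb10 (0.49), an adaptor that mTORC1 phosphorylates, and 0 were TE down, against 6.23% and 6.02%. Of the genes named here, Fnip1, Mios, Pik3r1 and Pik3ca were TE up in GS LRRK2 TG and TE down in GS/DA LRRK2 TG. Their RNA-Seq changes, in this order, were -0.23, -0.36, -0.36 and -0.35 in GS LRRK2 TG. In GS/DA LRRK2 TG they were 0.76, 0.51, 0.66 and 0.28. Footprinting changes were smaller in size, with 0.20, 0.08, 0.18 and 0.09, then -0.05, -0.09, 0.24 and -0.06. The opposite TE thus rests mainly on means of very unequal RNA-Seq libraries, such as 467 and 4436 reads of Pik3r1 in GS/DA LRRK2 TG. Both comparisons share non-TG control mice, and the opposite direction of TE was not tested. The TE up and TE down counts rest on single libraries. The 7 TE up became 2 without GS LRRK2 TG footprinting library b, and the 7 TE down became 0 without GS/DA LRRK2 TG RNA-Seq library b, 4 without its RNA-Seq library a, 3 without its footprinting library a and 2 without non-TG control footprinting library b. Leaving out 1 library gave 0 to 4 TE down in GS LRRK2 TG, 0 to 7 TE up in GS/DA LRRK2 TG, and 1 to 4 TE up and 0 to 2 TE down in LRRK2 KO. Median TE differences of the list were 0.02, -0.06 and 0.03, beside 0.02, -0.05 and 0.02 over all transcripts. In GS LRRK2 TG the median of the list became -0.14 without RNA-Seq library b and 0.17 with the mean of log2 values of the libraries.

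In the transgenic tables, most genes past the cutoff had low GC content. Its median was 44.5% for the 7 TE up in GS LRRK2 TG and 44.5% for the 7 TE down in GS/DA LRRK2 TG, beside 52.1% over the listed pathway genes, while Fnip2, TE down in GS/DA LRRK2 TG, had 52.0%. Grb10, the gene past the cutoff in LRRK2 KO, had 52.6% beside 52.2%. Fnip1 had RNA-Seq reads of 133 and 920 in the non-TG control and 111 and 1675 in GS/DA LRRK2 TG, higher in library b and lower in library a than in the control. Footprints of Fnip1 were 1258 and 1675 against 1162 and 1673, so its TE difference came from RNA-Seq. Across transcripts, the TE difference had a Spearman's rho with GC content of -0.46 (GS), 0.15 (GS/DA) and -0.29 (KO), and the part of GC content in the pathway counts was not tested. In limma with the library pair as a block, 1 of 73 tested genes of the list was called in GS/DA footprinting, against 0.453% of transcripts, and 1 of 77 in KO footprinting, against 0.157%.

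Positions are those of the annotated genes in mm9 (NCBIM37). Mtor (transcript uc008vuq.2) spans 147822720 to 147931792 on chromosome 4, Rptor (uc007mqw.1) 119464219 to 119760890 and Rps6kb1 (uc007ksn.2) 86312373 to 86358307 on chromosome 11, and Rictor (uc007vdn.2) 6658381 to 6750398 on chromosome 15. Mlst8 (uc008awg.2) and Tsc2 (uc008awx.1) lie near each other on chromosome 17, at 24610497 to 24616023 and 24732882 to 24769574. Tsc1 (uc008iyv.1) spans 28496748 to 28546687 on chromosome 2, Rheb (uc008wsj.1) 24308641 to 24348442 on chromosome 5 and Eif4ebp2 (uc007fga.1) 60895245 to 60915417 on chromosome 10. No coding sequence of a member overlaps that of another gene. Eif4ebp1, at 28370799 to 28386128 on chromosome 8, was the only member whose coding sequence had a copy of at least 90% identity over at least 100 bases elsewhere, with 93.3% identity over its whole length on chromosome 2 (150759269 to 150759625).

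The tables also give a predicted folding energy of the 5′UTR, which is more negative for a more stable structure. Rptor had -802.7 kcal/mol, at percentile 0.7 of the transgenic tables, Rictor -262.6 (percentile 12.3) and Mlst8 -218.4 (percentile 17.4), while Rps6kb1 had -44.5 and Rheb -50.4. The median of all transcripts there was -91.2 kcal/mol. Tsc2, at -103.1 (percentile 45.0), also lay below it, and the kinase Mtor, at -59.3, above it. By authors' means, the TE difference of Rptor was -0.12 in GS LRRK2 TG, 0.00 in GS/DA LRRK2 TG and 0.13 in LRRK2 KO, all within the z score cutoff. Without 1 library these values ran from -0.65 to 0.72, from -1.03 to 0.82 and from -0.06 to 0.29.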

How the data were processed

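The authors mapped reads to mm9 with TopHat2 2.0.11 and Bowtie2 2.2.2, counted them on the coding sequence over all isoforms, left out transcripts of low read number and deposited group means normalized with DESeq 1.20, a signal without an SD. The deposited folding energy of the 5′UTR is a score in kcal/mol taken by the authors from the UCSC annotation. Their own comparison columns hold log2 TE, TE differences and z scores. These were not used, including 6 columns of TE. Single libraries were recovered from each mean as the only pair of whole read numbers, each divided by a size factor, that gives it (Python 3.11.15, numpy 2.4.6, sympy 1.14.0), for 97.9% to 99.9% of transcripts in 10 of 12 columns, and the method was tested on simulated data. Recovered libraries carry no replicate number, and their pairing was read from the values. The log2 ratio of library a to b had a Spearman's rho between control and genotype of 0.74 (footprinting) and 0.98 (RNA-Seq) in the GS/DA table and of 0.76 and 0.69 in the KO table. Libraries of GS LRRK2 TG, lettered against the control libraries of the GS/DA table, had a rho of 0.63 and 0.98 with them. TE was recomputed from the authors' means with no pseudocount, and z scores were taken from the mean and SD of all transcripts. limma 3.58.1 (R 4.3.3) was fitted to log2(normalized reads + 10) of all resolved transcripts, with Benjamini-Hochberg adjustment and a threshold of 0.05, and changes on this scale understate those of low genes. TE was tested as the interaction of genotype and assay. Positions, coding length and GC content came from NCBIM37, and copies were sought with minimap2 2.31-r1302. Members and lists were chosen with earlier results of these data known. Pathway genes are named where the TE z score passes 1.5 in size, at most 4 per comparison. Beyond these, some genes that passed it in both transgenic tables are named, and Fnip2 for its GC content. Some genes of the lists are counted but not reported here by name. Ventral midbrain samples and libraries beyond those recovered were not analysed here.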

Additional observations from a re-analysis of the deposited data

Results flagged for a closer look

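Mlst8 footprints lay on opposite sides of the authors' control mean in the transgenic genotypes, by small distances. Both GS LRRK2 TG libraries were below the authors' mean of their control, by log2 values of -0.07 and -0.04, and both GS/DA LRRK2 TG libraries were above theirs, by 0.01 and 0.01. The footprinting change in GS LRRK2 TG minus that in GS/DA LRRK2 TG was -0.06. In the GS/DA table the genotype libraries, 617 and 617, lay between those of the control, 604 and 621, and the change was 0.03 in library pair a and -0.01 in pair b. The difference was not tested, the tables were normalized separately, and both comparisons share non-TG control mice.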

How the results depend on the processing

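Of 1548 values under alternative settings for 120 results, 1454 stayed within the spread between libraries or within 1.5 times the main count, 93 moved and 1 called value reversed, the Lrrk2 TE difference of 2.26 in GS/DA LRRK2 TG, which was -0.11 without non-TG control RNA-Seq library b (-0.11 to 5.02 without 1 library). Values within the spread may still change sign, since the spread was wide: of 1318 values of a difference or change, 201 had the sign opposite to the main one. Of those that moved, 14 concern single genes and 45 the pathway list. The medians of the footprinting and RNA-Seq changes, and all alternatives for the pathway list and for Lrrk2, were chosen after seeing the data. The leave-one-out, within-pair and mean-of-logs values were first computed with a pseudocount of 10. This was set to 0, as planned, after those values had been seen, which took the mean of logs out of the settings that moved the median footprinting change in GS LRRK2 TG.

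The median footprinting change of the members in GS LRRK2 TG was 0.05 with all group means at least 500, and -0.05 to -0.03 without 1 library. Counts of members TE up, 0 at first, became 2 (GS), 1 (GS/DA) and 1 (KO) with the mean of log2 values of the libraries, and 2 in KO at a z cutoff of 1. Counts TE down became 1 in GS/DA with the mean of log2 values, and 1 (GS) and 2 (GS/DA) at a z cutoff of 1. Leaving out 1 library gave 0 to 2 TE up and 0 to 1 TE down in GS, 0 to 2 and 0 to 2 in GS/DA, and 0 to 1 and 0 to 1 in KO. Within 1 library pair of each assay, GS/DA had 2 TE up and 1 TE down for footprinting pair a with RNA-Seq pair a and 1 TE up for footprinting pair b with RNA-Seq pair a, and KO had 1 TE up for each of these pairings. The cause was not tested.

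With the library pair, itself read from these values, as a replicate block, limma called 38 transcripts (GS/DA footprinting), 15 (KO footprinting) and 13 (KO RNA-Seq) in place of 0, and it called 1 of 73 and 1 of 77 pathway genes in GS/DA and KO footprinting in place of 0. It changed no other of these counts. Leaving out 1 library gave 2 to 28 calls for GS/DA footprinting, from 28 without non-TG control library b to 2 without GS/DA LRRK2 TG library b, where the lone library is assumed to vary like the others. The limma fits and the within-pair values were not run for the GS comparison, since its controls could not be resolved. With 2 libraries a group, an SE of the TE change up to 2.13, or up to 0.30 with the block, limits what could be detected.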
